A study of Mus musculus with 8 samples.

Results

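The 7 genes described here encode the chains of the thin collagen fibrils of cartilage: Col2a1, Col9a1, Col9a2, Col9a3, Col11a1, Col11a2 and Col27a1. They were chosen by name, with earlier results of these data known. All 7 were found among the 23478 gene symbols of each of the 2 deposited count tables. The 8 libraries were made from E13.5 mouse tracheas, an embryonic stage at which cartilage precursors gather in the ventral mesenchyme and the trachealis muscle forms dorsally. In the first table, cells were sorted from tracheas of 2 mutants (Bmp4flox/flox, Foxg1Cre+, γSMAeGFP) and 3 controls (Bmp4flox/flox, γSMAeGFP). The sort removed cells stained for EPCAM, an epithelial surface protein, and cells with GFP from a smooth muscle gamma-actin reporter, so what was kept was defined by absence of both. In the second table, whole tracheas came from 1 mutant (Wls flox/flox, ShhCre+) and 2 controls (Wls flox/flox). All controls carried the floxed alleles and no Cre, so the Cre drivers themselves and the deletions cannot be told apart. Shh-Cre acts in the airway epithelium, and the sources used here do not state which tracheal cells Foxg1Cre recombined. Whether the replicate libraries derive from different embryos is not labelled. The p-values thus reflect library-to-library spread alone, and that spread could be technical.

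Cartilage fibrils are built from 3 kinds of collagen. Collagen II, a trimer of the Col2a1 chain, forms the bulk of the fibril. Collagen XI, which joins the Col11a1 and Col11a2 chains with a chain also encoded by Col2a1, nucleates the fibril and limits its width. Collagen IX, a trimer of the Col9a1, Col9a2 and Col9a3 chains, does not form fibrils itself but sits on their surface and links them to other matrix. Col27a1 encodes a separate fibrillar collagen found in growing cartilage. In chondrocytes the transcription factor SOX9, together with SOX5 and SOX6, activates the genes of collagens II, IX and XI.

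The genes lie apart in the genome (GRCm38/mm10, GENCODE M21), except that Col9a2 and Col27a1 are both on chromosome 4. Col2a1 lies on chr15:97975602-98004695 (minus strand), Col11a1 on chr3:114030540-114220718 and Col11a2 on chr17:34039437-34066685 (both plus strand). Col9a1 lies on chr1:24177610-24252684, Col9a2 on chr4:121039385-121055322 and Col9a3 on chr2:180597790-180622189, all on the plus strand. Col27a1 lies on chr4:63214004-63334991 (plus strand). Their transcripts hold many short exons, from at most 32 in Col9a2 to 67 in Col11a1, and their exons cover from 2.92 kb (Col9a2) to 7.67 kb (Col11a1). Of these exons, those of Col9a3 share 234 bases with Tcfl5 on the opposite strand. The strand setting of the counting is not given in the sources used here, so reads there cannot be told apart. Tcfl5 itself had at most 4.53 CPM in any library and was called higher in the Bmp4 mutants (log2 fold change 3.72, edgeR adjusted p = 0.00497). Its level does not limit how many reads of the shared bases were given to Col9a3.

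RefSeq promoter windows (GRCm38.p6, from 250 bases before to 50 bases after an annotated start) were at hand for 5 of the 7 genes, 6 windows in all because Col9a1 has a pair of starts. The windows below are those of Col9a1 and Col9a2, whose transcripts fell in both mutants, and of the 2 collagen XI chains, which are set against each other below. Capitals mark every match to the SOX core ACAAT, the SOX or TCF-like motif ACAAAG and the GC box GGGCGG on either strand, and to the TATA box TATAAA on the sense strand.
Col9a1, first start, chr1:24177360-24177659, plus strand: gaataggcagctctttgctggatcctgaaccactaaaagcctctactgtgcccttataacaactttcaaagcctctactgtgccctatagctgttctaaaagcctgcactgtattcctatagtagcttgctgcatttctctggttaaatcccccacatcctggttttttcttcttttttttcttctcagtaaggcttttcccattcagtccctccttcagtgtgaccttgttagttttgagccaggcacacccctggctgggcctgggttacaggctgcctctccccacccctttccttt
Col9a2, chr4:121039316-121039615, plus strand: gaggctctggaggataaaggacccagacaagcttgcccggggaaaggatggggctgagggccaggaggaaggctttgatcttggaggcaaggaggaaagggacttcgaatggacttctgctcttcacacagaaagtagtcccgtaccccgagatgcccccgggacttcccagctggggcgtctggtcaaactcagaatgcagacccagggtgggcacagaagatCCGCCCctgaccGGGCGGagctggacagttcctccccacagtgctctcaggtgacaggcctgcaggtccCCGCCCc
Col11a1, chr3:114030290-114030589, plus strand: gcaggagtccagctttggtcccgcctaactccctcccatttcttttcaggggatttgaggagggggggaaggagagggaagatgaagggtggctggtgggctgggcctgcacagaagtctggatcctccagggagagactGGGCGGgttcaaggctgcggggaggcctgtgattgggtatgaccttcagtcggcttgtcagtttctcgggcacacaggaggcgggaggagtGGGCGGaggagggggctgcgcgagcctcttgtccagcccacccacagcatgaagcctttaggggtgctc
Col11a2, chr17:34038888-34039187, plus strand: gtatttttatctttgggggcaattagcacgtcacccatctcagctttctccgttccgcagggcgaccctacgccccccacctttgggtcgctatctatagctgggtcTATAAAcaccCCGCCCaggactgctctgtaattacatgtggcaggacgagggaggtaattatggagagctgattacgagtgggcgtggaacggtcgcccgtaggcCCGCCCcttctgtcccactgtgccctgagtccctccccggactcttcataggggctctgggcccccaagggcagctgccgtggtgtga
None of the 6 windows of the 5 genes held ACAAT or ACAAAG, which were present in 31.02% and 18.71% of all 32851 promoter windows. GGGCGG, present in 35.66% of all windows, occurred 3 times in Col9a2 and 2 times each in Col11a1, Col11a2 and Col27a1, and in neither Col9a1 window. TATAAA, present in 8.319% of all windows, occurred once among these genes, in Col11a2 at position -143. These letters describe the windows alone, and no binding was measured.

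The depth of the sorted cells differed between groups, with 12964287 and 15462780 counts in the Bmp4 mutants against 48876948 to 55492747 counts in their controls. The tracheas had 24596836 counts in the Wls mutant against 27237573 and 31399982 counts in its controls. The 2 Bmp4 mutant libraries also stood apart by counts spread over genes that are silent in the controls. Levels are given as CPM, the count scaled to a common library size. The summed level of 1456 odorant and vomeronasal receptor genes was 2455 and 2203 CPM in the Bmp4 mutants, against 10.9 to 14.8 CPM in their controls. This background was estimated as even over exons from other genes, picked for at most 3 counts in each control. In the mutants it came to 25.2 and 21.5 counts per kilobase, or 14.2% and 10.2% of all counts. Its value in the controls, at most 0.108 counts per kilobase, was held low by that choice of genes. The calls of the 7 genes, their ratios to Col2a1 and the list counts are given also with this background subtracted, while levels, shares and profiles are not. The targeted gene Bmp4 fell by 2.03 ± 0.20 on the log2 scale (SE) in the sorted mutant cells (edgeR adjusted p = 0.0033). In the Wls mutant trachea, Wls fell by 1.19 ± 0.19 (edgeR adjusted p = 2.23e-07).

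In the sorted cells of Bmp4 mutants, Col2a1, the 3 collagen IX genes and Col27a1 fell, while the 2 collagen XI genes did not pass the test. The largest changes were those of Col2a1, Col9a3 and Col9a1, which were 4.91-fold to 5.68-fold lower. Their size rests on single libraries: without mutant 1 these 3 genes were 3.18-fold to 3.77-fold lower, and without mutant 2 they were 9.26-fold to 11.9-fold lower. Of the 7 genes, 5 were called lower, against 15.6% of all 21665 genes tested, and none was called higher, against 39.3% of all genes. The adjusted p of each gene depends also on all other genes of the fit, among them those with counts mainly in the mutants. Without adjustment, the edgeR p of the 5 genes ran from 0.00119 (Col9a1) to 0.0164 (Col27a1). The median log2 fold change of the 7 genes was -1.82, against 0.53 for all genes tested and -0.31 for the 11547 genes with a mean log2 CPM of at least 3, of which 29.1% were called lower. The 2 mutants lay below all 3 controls for 5 of the 7 genes, against 25.6% of all genes. In bulk RNA, fewer cells of a type and less RNA per cell cannot be told apart.

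**Figure D1:**
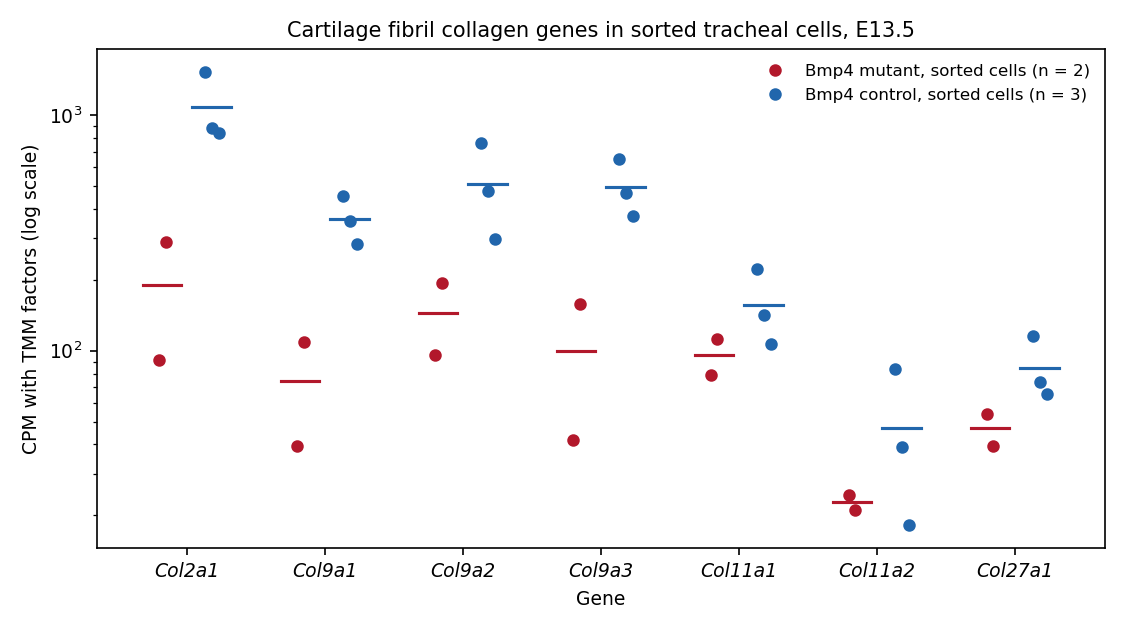
Level of each gene in sorted tracheal cells (y axis, CPM with TMM factors, log scale). Points are libraries of Bmp4 mutants (red, n = 2) and controls (blue, n = 3), and bars are group means. The mutants sit below every control for Col2a1, Col9a1, Col9a2, Col9a3 and Col27a1, and the groups overlap for Col11a1 and Col11a2.

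Col2a1, the core chain, had 91.3 and 289 CPM in mutants 1 and 2, against 1526, 882 and 838 CPM in the 3 controls. Every mutant value lay below every control value, and mutant 1 was lower than mutant 2. Group means were 190 ± 140 CPM in the mutants (SD, n = 2) and 1082 ± 385 CPM in the controls (SD, n = 3). The log2 fold change was -2.51 ± 0.53 (SE, edgeR adjusted p = 0.00678), a level 5.68-fold lower in the mutants. It was 3.77-fold lower without mutant 1 and 11.8-fold lower without mutant 2.

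The collagen XI chains, which seed and size the fibril, differed less. Col11a1 had 79.0 and 112 CPM in the mutants, against 222.5, 142 and 107 CPM in the controls, and mutant 2 lay above control 3. Its log2 fold change of -0.71 ± 0.32 did not pass the test (edgeR adjusted p = 0.0967). Col11a2, the least abundant of the 7 per kilobase, had 24.3 and 21.1 CPM in the mutants, against 83.5, 38.9 and 18.2 CPM in the controls. Both mutants lay within the range of the controls, which themselves spanned 4.59-fold. Its log2 fold change was -1.05 ± 0.56 (edgeR adjusted p = 0.152). Both results rest on control 3: without it Col11a1 was called lower at -0.93 (edgeR adjusted p = 0.0341) and Col11a2 at -1.43 (edgeR adjusted p = 0.0176).

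The collagen IX chains, which coat the fibril, followed Col2a1. Col9a1 had 39.3 and 109 CPM in the mutants, against 454, 356 and 283 CPM in the controls, with a log2 fold change of -2.30 ± 0.45 (SE, edgeR adjusted p = 0.00471). Col9a2 had 96.1 and 194 CPM in the mutants, against 761, 477 and 298 CPM in the controls, and a log2 fold change of -1.82 ± 0.46 (SE, edgeR adjusted p = 0.0131). Col9a3 had 41.6 and 158 CPM in the mutants, against 651, 467 and 373 CPM in the controls, and a log2 fold change of -2.32 ± 0.56 (SE, edgeR adjusted p = 0.0108). No group overlapped for any of the 3 chains. As for Col2a1, mutant 1 was the lower mutant and control 1 the highest control for each of them. The mutants differed from each other by 3.79-fold for Col9a3, and without mutant 1 the call of Col9a2 was lost (-1.41, edgeR adjusted p = 0.0911).

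Col27a1, the separate fibrillar collagen, had 54.1 and 39.6 CPM in the mutants, against 115, 73.6 and 65.7 CPM in the controls. The groups did not overlap, and here mutant 2 was the lower one. The log2 fold change was -0.86 ± 0.28 (SE, edgeR adjusted p = 0.0331). This call was lost without mutant 1 (-1.11), without mutant 2 (-0.65) and without control 1 (-0.57, edgeR adjusted p = 0.0606). It was also lost with scaling to genes above the background (-0.43, edgeR adjusted p = 0.221).

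The background of the mutant libraries made up a share of the counts that differed between genes and between mutants. Spread evenly over exons, it came to 10.3% and 2.15% of the Col2a1 counts in mutants 1 and 2, and to 19.2% and 4.59% of those of Col9a1. For Col11a2 it reached 47.7% and 36.4%. When it was estimated instead from silent genes of like GC content, an alternative chosen after seeing the data, it came to 28.6% and 17.0% of the Col11a2 counts. By that estimate it came to 27.8% and 4.86% of the Col9a1 counts, and to 6.68% and 1.05% of those of Col2a1. With the even background subtracted, no gene of the 7 was called, against 0.161% of 8686 genes called lower, and with the GC-matched background none was called, against 0.265%. Col11a2 reached the minimum level for subtraction only through its controls, so its subtracted value has no weight. The fold changes of the other 6 stayed below 0 in both. With the GC-matched background they were -2.02 for Col2a1 (edgeR adjusted p = 0.106), -1.95 for Col9a1 (adjusted p = 0.108), -1.30 for Col9a2 (adjusted p = 0.163) and -1.86 for Col9a3 (adjusted p = 0.14). They were -0.34 for Col11a1 (edgeR adjusted p = 0.568), -0.84 for Col11a2 (adjusted p = 0.452) and -0.56 for Col27a1 (adjusted p = 0.303). Unadjusted, the edgeR p with the GC-matched background ran from 0.0075 (Col2a1) to 0.0246 (Col9a2) for Col2a1 and the collagen IX genes, and was 0.0965 for Col27a1. A subtraction of this kind removes the even part of the background and not its noise. What removed the calls was not tested.

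**Figure D2:**
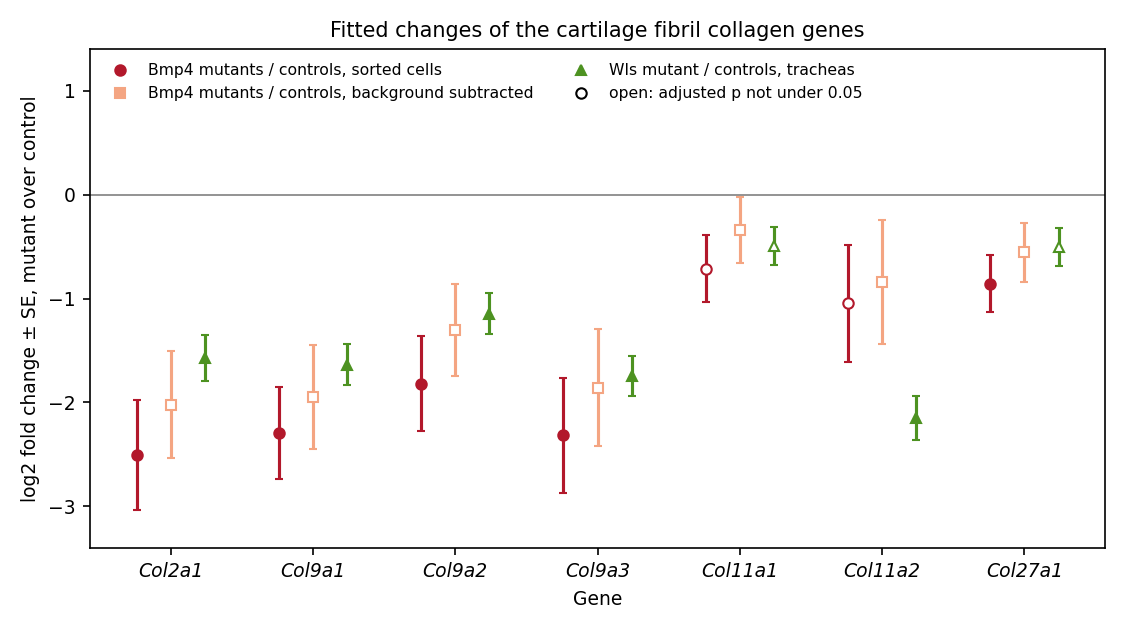
Log2 fold change of each gene, mutant over control, with its SE (y axis). Circles are Bmp4 mutants in the sorted cells, squares the same after subtraction of the GC-matched background, triangles the Wls mutant trachea, and open symbols did not pass an edgeR adjusted p of 0.05. Every symbol lies below 0, but the square of Col11a2 has no weight, because the gene reached the minimum level only through its controls. Col11a2 is the gene lowest in the trachea, at -2.15, and not called in the sorted cells.

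Markers of several cell types moved with the groups of the sorted cells. Summed over Sox9, Acan, Matn1, Lect1 and Hapln1, cartilage markers had 200 and 548 CPM in the Bmp4 mutants, against 1992, 1122 and 755 CPM in the controls. Sox9 carried most of this sum, with 162 and 469 CPM in the mutants, against 1946, 1090 and 733 CPM in the controls. None of the other 4 markers was called lower: Matn1 was called higher, and Lect1 (0.97), Hapln1 (0.62) and Acan (0.42) had log2 fold changes above 0 that did not pass the test. None of these 4 could be tested with the background subtracted. Matrix markers of later chondrocytes were scarce in the cells labelled chondroblasts: Acan, the core protein of aggrecan, had 9.86 and 19.4 CPM in the mutants, against 22.9, 8.54 and 1.52 CPM in the controls. Matn1 was at 0 in 2 of the 3 controls. Smooth muscle markers, which the sort was meant to remove, summed to 1479 and 211 CPM in the mutants, against 121, 136 and 156 CPM in the controls. Of them 5 of 6 were called higher, against 39.3% of all genes, and 0 of 6 after subtraction of the even background. Airway epithelial markers summed to 78.2 and 53.3 CPM in the mutants, against 39.4, 37.2 and 24.8 CPM in the controls. Of these 3 of 7 tested were called higher, a share near that of all genes, and none after subtraction. Endothelial markers summed to 169 and 139.5 CPM in the mutants, against 23.1, 84.1 and 57.9 CPM in the controls, and leukocyte markers to 129 and 112 CPM in the mutants, against 67.9, 64.3 and 67.7 CPM in the controls. With the even background subtracted none of these markers that could be tested was called higher. Neuron and neural crest markers summed to 431 and 492.5 CPM in the mutants, against 260, 397 and 265.5 CPM in the controls. Notochord markers summed to 51.2 and 27.2 CPM in the mutants, against 1.54, 14.1 and 6.98 CPM in the controls. Most of each sum was Krt19, which was not called (2.02, edgeR adjusted p = 0.0649). T and Noto were called higher but could not be tested with the background subtracted. Skeletal muscle markers summed to 355 and 181 CPM in the mutants, against 87.4, 105 and 262 CPM in the controls, so these groups overlapped. Most of the sum in each mutant was Ttn, which was called higher (3.69, edgeR adjusted p = 0.0033). Ttn could not be tested with the background subtracted, so this part of the sum cannot be told apart from background. Actc1, most of each control sum, had 110 and 9.23 CPM in the mutants, against 77.1, 88.9 and 142 CPM in the controls. It was not called (-0.78, edgeR adjusted p = 0.443). Erythroid markers summed to 19470 and 324 CPM in mutants 1 and 2, against 29.0, 1829 and 2534 CPM in the controls, highest in mutant 1, the library with the lowest Col2a1, Col9a1, Col9a2, Col9a3 and Col11a1. The part of these markers in the fall of the collagen genes was not tested.

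In the trachea with Wls deleted in the epithelium, Col2a1, the 3 collagen IX genes and Col11a2 fell, and Col11a1 and Col27a1 did not pass the test. Of the 7 genes, 5 were called lower, against 2.39% of all 15815 genes tested, and none was called higher, against 1.88% of all genes. The median log2 fold change of the 7 genes was -1.57, against -0.01 for all genes. The mutant lay below both controls for all 7 genes, which held for 37.6% of all genes. The fit has 1 residual degree of freedom, and the single mutant was assumed to vary like the controls. A rule of size without a test gave the same 5 genes, against 2.29% of all genes: a difference of at least 1 in log2 CPM, with the mutant farther outside the controls than they were from each other.

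**Figure D3:**
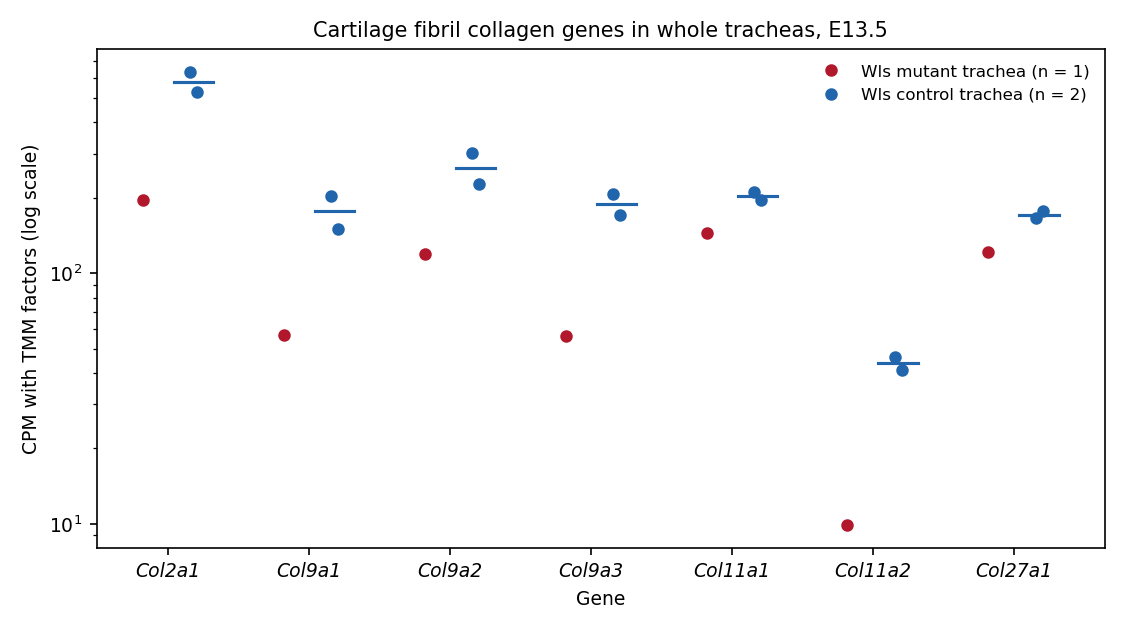
Level of each gene in whole tracheas (y axis, CPM with TMM factors, log scale). Points are libraries of the Wls mutant (red, n = 1) and controls (blue, n = 2), and bars are control means. The mutant lies below both controls for all 7 genes, farthest for Col11a2 and least for Col11a1 and Col27a1.

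Col2a1 had 195 CPM in the mutant trachea, against 636 and 527 CPM in the controls, a log2 fold change of -1.57 ± 0.22 (SE, edgeR adjusted p = 7.19e-09). The 2 controls lay 1.21-fold apart and the mutant was well below both. Among the collagen XI chains, Col11a1 had 145 CPM in the mutant, against 212 and 196 CPM in the controls, and its change of -0.49 ± 0.18 was not called (edgeR adjusted p = 0.12). Col11a2 had 9.87 CPM in the mutant, against 46.4 and 41.1 CPM in the controls. At -2.15 ± 0.21 this was the largest change of the 7 in the trachea (SE, edgeR adjusted p = 1.82e-16), from 241 counts in the mutant library.

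Col9a1 had 56.9 CPM in the mutant trachea, against 204 and 150 CPM in the controls, a log2 fold change of -1.64 ± 0.19 (SE, edgeR adjusted p = 3.28e-12). Col9a2 had 119 CPM in the mutant, against 301 and 227 CPM in the controls, and changed least of the collagen IX chains at -1.15 ± 0.20 (SE, edgeR adjusted p = 2.98e-06). Col9a3 had 56.4 CPM in the mutant, against 207 and 171 CPM in the controls, and a log2 fold change of -1.75 ± 0.19 (SE, edgeR adjusted p = 1.34e-13). In both tables Col9a2 thus had the smallest fitted change of the 3 chains, though no test compared them. Col27a1 had 121 CPM in the mutant, against 165.5 and 177 CPM in the controls, and its change of -0.50 ± 0.18 was not called (edgeR adjusted p = 0.0986).

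Cartilage markers in the trachea summed to 89.7 CPM in the Wls mutant, against 220 and 195 CPM in its controls, with 2 of 4 tested called lower. Sox9, whose levels are given below, carried most of each sum. Of all genes tested in the trachea, 2.39% were called lower and 1.88% higher. Smooth muscle markers summed to 2648 CPM in the mutant, against 1937 and 1598 CPM in the controls, with 1 of 6 called higher. Airway epithelial markers summed to 1026 CPM in the mutant, against 735 and 598 CPM in the controls, with 5 of 8 called higher and 1 lower, Krt5 (-1.34, edgeR adjusted p = 3.94e-05), a marker of basal cells. Skeletal muscle markers summed to 421 CPM in the mutant, against 477 and 359 CPM in the controls, with 3 of 5 called higher. Endothelial markers summed to 222 CPM in the mutant, against 278 and 330 CPM in the controls, with 1 of 5 called lower. Their part in the lower collagen levels was not tested. Receptor genes silent in this tissue stood at 75.5 CPM in the mutant trachea, against 61.9 and 80.9 CPM in the controls.

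Levels of different genes were compared per kilobase of exon (RPKM, the CPM value divided by the exon length in kilobases). In the Bmp4 mutants the order was led by Col9a2, with 32.9 and 66.2 RPKM, followed by Col2a1 with 17.9 and 56.7 RPKM, and in the controls by Col2a1, with 299, 173 and 164 RPKM, followed by Col9a2 or Col9a3. In mutant 1, Col11a1 at 10.3 RPKM stood above Col9a1 at 9.57 RPKM, while in mutant 2 and all 3 controls Col9a1 was the higher. In the controls the means ran from 212 ± 75.4 RPKM for Col2a1 to 175 ± 79.9 for Col9a2, 163 ± 46.4 for Col9a3 and 88.7 ± 21.0 for Col9a1 (SD, n = 3). Below these lay Col11a1 at 20.5 ± 7.75, Col27a1 at 11.1 ± 3.48 and Col11a2 at 7.43 ± 5.29 RPKM. The ranges of the first 3 genes overlap, and so do those of Col27a1 and Col11a2, although Col2a1 led in each of the 3 controls and Col11a2 came last. In the Wls mutant trachea Col9a2 also came first, at 40.8 RPKM against 38.3 RPKM for Col2a1, whereas in both controls Col2a1 led, at 125 and 103 RPKM against 103 and 77.6 RPKM for Col9a2.

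**Figure D4:**
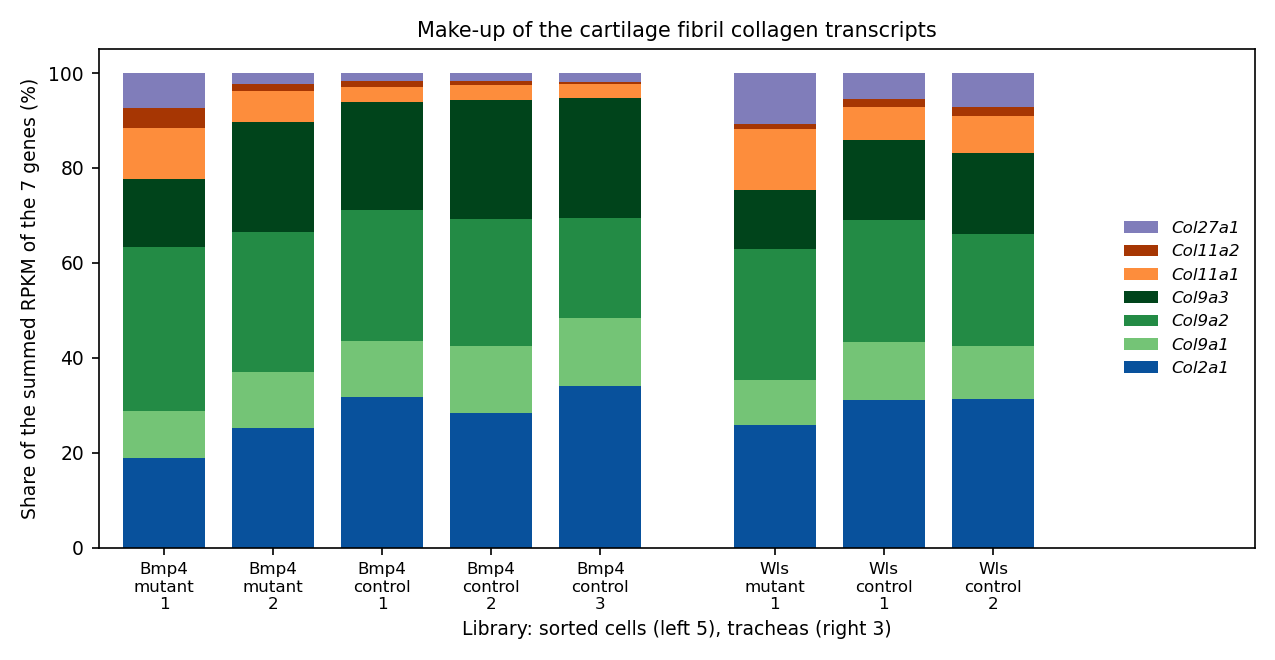
Share of each gene in the summed RPKM of the 7 genes (y axis, percent), by library, with mutants left of controls in each table. Col2a1 holds 18.8% and 25.3% in the Bmp4 mutants and 28.3% to 34.0% in their controls, while the shares of Col11a1 and Col27a1 are larger in the mutants of both tables.

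The amount and the make-up of these transcripts can be read side by side. Together the 7 genes took 0.0450% and 0.105% of all counts in the Bmp4 mutants, against 0.352%, 0.226% and 0.192% in the controls. In the tracheas they took 0.0698% in the Wls mutant, against 0.174% and 0.153% in the controls. Of the summed RPKM, Col11a1 held 10.8% and 6.53% in the Bmp4 mutants, against 3.09%, 3.03% and 2.88% in their controls. In the tracheas it held 12.8% in the mutant, against 6.87% and 7.76% in the controls.

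Ratios within a library do not depend on its depth or scaling, so each gene was set against Col2a1 per kilobase. In the sorted cells the log2 ratio of Col11a1 to Col2a1 was -0.80 and -1.95 in the Bmp4 mutants, against -3.36, -3.23 and -3.56 in the controls, a difference of 2.01 or 4.03-fold. The ratio of Col11a2 to Col2a1 was -2.21 and -4.08 in the Bmp4 mutants, against -4.50, -4.81 and -5.83 in the controls, a difference of 1.90. The ratio of Col27a1 was higher in the mutants by 1.85. For Col27a1 the mutants were far apart, at -1.33 and -3.45, against -4.31, -4.16 and -4.25 in the controls. Col9a2 was higher relative to Col2a1 by 0.88, with 0.88 and 0.22 in the mutant libraries, against -0.20, -0.08 and -0.69 in the controls. Without mutant 1 these differences were 1.43 for Col11a1, 0.97 for Col11a2, 0.79 for Col27a1 and 0.55 for Col9a2, and without mutant 2 they were 2.59, 2.83, 2.91 and 1.20. For these 4 genes the groups did not overlap, and the two-sided exact permutation p was 0.1, the smallest that 2 against 3 libraries allow (0.15 adjusted over the 6 ratios). Because Col2a1 is itself among the lowered genes, 98.6% of all genes tested were higher relative to it in both mutants than in every control. The median difference was 3.21 over all genes and 2.35 among 11126 genes whose log2 CPM, averaged over libraries, was at least 3. That set differs from the 11547 genes above, which were chosen by the average log2 CPM that edgeR computes. The 4 differences lie below both medians. For Col9a1 and Col9a3 the groups overlapped, with differences of 0.23 (exact permutation p = 0.3) and 0.10 (exact permutation p = 0.5). With the even background subtracted the differences were 1.90 for Col11a1, 1.20 for Col11a2, 1.54 for Col27a1 and 0.91 for Col9a2, and the groups then overlapped for Col11a2, with mutant 2 at -4.70 against -4.50 in control 1. With the GC-matched background they were 1.87, 1.58, 1.63 and 0.90, with no overlap. The subtracted ratios of Col11a2 have no weight, because it reached the minimum level for subtraction only through its controls.

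**Figure D5:**
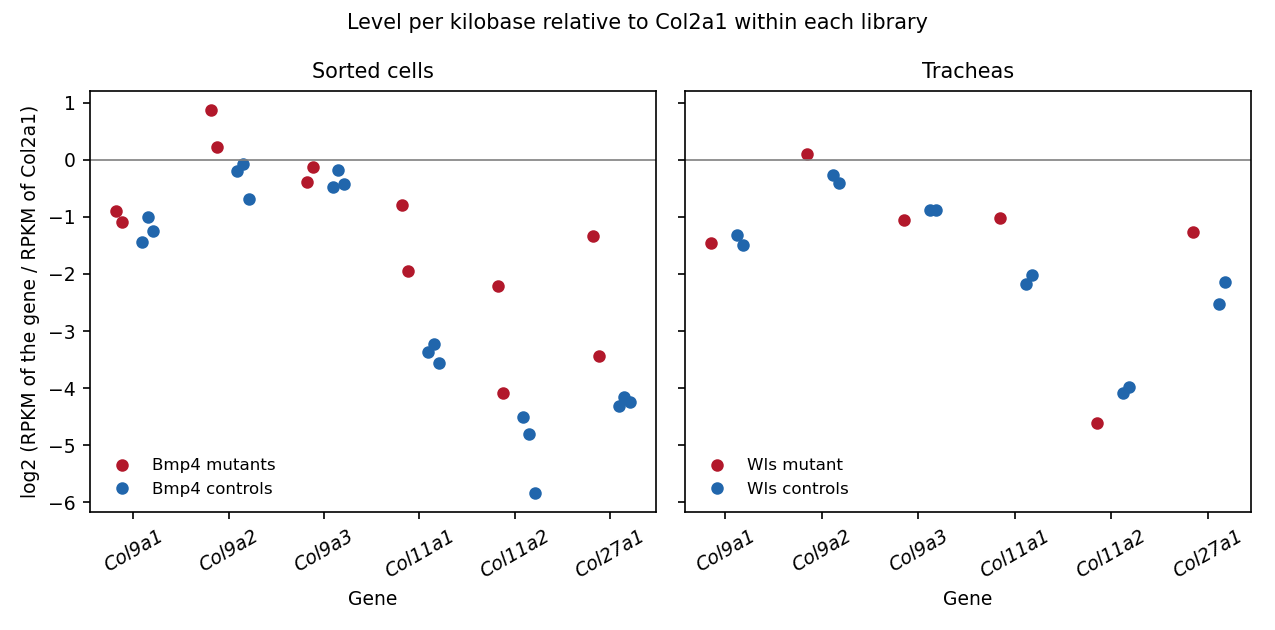
Log2 ratio of each gene's RPKM to that of Col2a1 in the same library (y axis), in sorted cells (left) and tracheas (right), with mutants in red left of controls in blue. Col11a1 and Col27a1 are higher relative to Col2a1 in the mutants of both tables, the group means of Col9a1 and Col9a3 differ by at most 0.23, and Col11a2 is higher in the Bmp4 mutants but lower in the Wls mutant.

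In the tracheas the log2 ratio of Col11a1 to Col2a1 was -1.02 in the Wls mutant, against -2.18 and -2.02 in the controls, and that of Col27a1 was -1.27 in the mutant, against -2.52 and -2.15. Col9a2 stood at 0.09 in the mutant, against -0.27 and -0.41 in the controls. Col11a2 went the other way, at -4.61 in the mutant, against -4.08 and -3.99 in the controls. Of all genes, 98.5% were higher relative to Col2a1 in the mutant than in both controls, and the median difference over all genes was 1.56. No test was run on the ratios of the tracheas. Among chains of one collagen, the ratio of Col11a2 to Col11a1 was -3.59 in the Wls mutant, against -1.91 and -1.97 in the controls. In the sorted cells the same ratio was -1.42 and -2.13 in the Bmp4 mutants, against -1.13, -1.58 and -2.27 in the controls, a difference of -0.11 (exact permutation p = 0.9). The ratio of Col9a3 to Col9a1 differed by -0.13 in the sorted cells (exact permutation p = 0.7) and by -0.12 in the tracheas. That of Col9a2 to Col9a1 was higher by 0.65 in the Bmp4 mutants (exact permutation p = 0.2) and by 0.49 in the Wls mutant.

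Over the 5 libraries of sorted cells, the genes whose profile was most like that of Col2a1 were Col9a3 and Col9a1, ranked 1 and 2 of 11126 genes. The measure was the root mean square difference of centred log2 CPM, 0.14 for Col9a3 and 0.19 for Col9a1. Col9a2 ranked 13, while Col11a1 ranked 1066, Col27a1 2088 and Col11a2 3245. The nearest genes outside the 7 were 2610035D17Rik, St6gal2, which encodes a sialyltransferase, Snai1, a transcriptional repressor, Sox9, and Fgfr3, an FGF receptor of growing cartilage, with differences of 0.28 to 0.38. Snai1, for example, had 21.3 and 40.4 CPM in the mutants, against 186, 120 and 121.5 CPM in the controls. Over the 3 tracheas, among 10896 genes, Col9a1 ranked 3, Col9a3 ranked 4, Snai1 12, Sox9 15, 2610035D17Rik 24, Col9a2 31 and Col11a2 56. Fgfr3 ranked 177, Col11a1 371 and Col27a1 420. These are descriptions over few libraries that share a group split.

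Of 8 regulators of cartilage collagen genes, 5 were called lower and 1 higher in the sorted Bmp4 mutants, against 15.6% and 39.3% of all genes. Their median was -1.36, against 0.53 for all genes tested. Among genes with a mean log2 CPM of at least 3, 29.1% were called lower and the median was -0.31. Sox9, the activator of Col2a1, fell by 1.99 ± 0.56 (SE, edgeR adjusted p = 0.0207). Wwp2, the host gene of a cartilage microRNA and itself a ubiquitin ligase, had 199 and 473 CPM in the mutants, against 1536, 1124 and 1006 CPM in the controls (-1.86 ± 0.40, edgeR adjusted p = 0.00687). Sox5, a partner of SOX9, had 32.7 and 47.3 CPM in the mutants, against 120, 116 and 104 CPM in the controls (-1.50 ± 0.20, edgeR adjusted p = 0.0033). With the even background subtracted, 1 of the 5 regulators tested was called, Sox6 (-1.27, edgeR adjusted p = 0.0458), named after its values were seen. Sox9 was then at -1.48 (edgeR adjusted p = 0.2), Sox5 at -1.43 (0.0713) and Wwp2 at -1.35 (0.122). In the Wls mutant trachea 4 of 7 tested were lower, against 2.39% of all genes, with a median of -0.86. There Wwp2 had 162 CPM in the mutant, against 416 and 490 CPM in the controls (-1.48, edgeR adjusted p = 1.32e-08), and Sox9 had 75.5 CPM, against 193 and 173 CPM (-1.28, edgeR adjusted p = 3.42e-08). Sox6 had 25.9 CPM in the mutant, against 46.8 and 58.9 CPM in the controls (-1.03, edgeR adjusted p = 2.73e-05).

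Of 13 genes of other cartilage matrix proteins tested in the sorted cells, none was called lower and 5 were called higher, a share near the 39.3% of all genes, with a median of 1.01. The most abundant of them, Matn4, named after its values were seen, had 63.4 and 144 CPM in the mutants, against 542.5, 290 and 103.5 CPM in the controls. Its log2 fold change of -1.59 ± 0.67 did not pass the test (edgeR adjusted p = 0.0792), nor did that of Prelp, at -0.34 (edgeR adjusted p = 0.614). Those called higher included Matn3 and Matn1, encoding matrilins, and Comp, encoding a protein that binds collagen IX. They were near 0 in the controls and lay under the limit of the background: Comp had 4.53 and 3.45 CPM in the mutants, against 0.137, 0.154 and 0.166 CPM in the controls. With the background subtracted 4 of the 13 could be tested and none was called. In the Wls mutant trachea 3 of 10 were lower and 1 higher, against 2.39% and 1.88% of all genes. Matn4 fell by 1.82 and Prelp by 1.16 on the log2 scale, while Fmod, which encodes a proteoglycan that binds fibrils, had 88.5 CPM in the mutant, against 44.1 and 44.8 CPM in the controls (0.99 ± 0.17, edgeR adjusted p = 4.02e-06).

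Of 10 genes for collagens of fibroblasts (I, III, V, XII, XIV, XVI and XXIV), none was called lower in the sorted Bmp4 mutants and 4 were called higher, a share near the 39.3% of all genes. Their median was 0.52, against 0.53 for all genes tested. Col3a1, a chain of soft tissue fibrils, had 4624 and 5205 CPM in the mutants, against 2420, 3740 and 2487 CPM in the controls (0.77 ± 0.27, edgeR adjusted p = 0.0445). Col14a1, of a collagen on fibril surfaces, had 55.8 and 60.1 CPM in the mutants, against 17.8, 21.0 and 13.4 CPM in the controls (1.74 ± 0.22, edgeR adjusted p = 0.0033). Col5a3 was called higher too, at 3.54, but its level lay under the limit set by the background. With the even background subtracted, Col14a1 stayed called (2.05, edgeR adjusted p = 0.0458) and Col3a1 did not (1.35, edgeR adjusted p = 0.0713). In the Wls mutant trachea none of the 10 was called, with a median of -0.21. Col1a1 had 3181 CPM in the mutant, against 4149 and 2754 CPM in the controls, and Col3a1 had 3087 CPM, against 3983 and 3183 CPM.

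Among 29 genes for the folding, cleavage and crosslinking of procollagen, 7 were lower and 4 higher in the sorted Bmp4 mutants, with a median of -0.11. Of all genes tested, 15.6% were called lower and 39.3% higher. Among genes with a mean log2 CPM of at least 3, 29.1% were called lower. Bmp1, the protease that trims the end of procollagens, had 77.3 and 76.0 CPM in the mutants, against 171, 155 and 147 CPM in the controls (-1.04 ± 0.15, edgeR adjusted p = 0.0033). P4ha1, a proline hydroxylase subunit, fell by 0.68 ± 0.18 (edgeR adjusted p = 0.0146), and Loxl2, a crosslinking enzyme, fell by 0.56 ± 0.14 (edgeR adjusted p = 0.0147). None of the 19 that could be tested after subtraction of the even background was called, with Bmp1 then at -0.56, P4ha1 at -0.19 and Loxl2 at -0.12. In the Wls mutant trachea 4 of 29 were lower, against 2.39% of all genes, with a median of -0.19. Bmp1 had 211 CPM in the mutant, against 347 and 424 CPM in the controls (-0.87 ± 0.20, edgeR adjusted p = 0.00147). Creb3l2, a transcription factor of the secretory pathway in cartilage, fell by 0.90 ± 0.18 (edgeR adjusted p = 0.000163), and Loxl3 fell by 0.63 ± 0.20 (edgeR adjusted p = 0.0372). Of 7 collagen receptor genes, 1 was lower in the sorted mutants, Ddr2 (-0.60 ± 0.16, edgeR adjusted p = 0.015, but -0.18 and 0.48 with the even background subtracted), and 2 were higher, the integrins Itga10 and Itga2, both under the limit of the background. In the trachea none of the 7 was called: Itgb1 had a log2 fold change of 0.06 and Ddr2 one of 0.26.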

How the data were processed

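Sorted cells and tracheas each have a table of whole-number counts per gene, used as the authors deposited them. Trizol RNA was amplified by SMART-Seq v4 (sorted cells) or Ovation v2 (tracheas) before Nextera XT library preparation, per the labels' protocols. Of programs, Bowtie2, Cufflinks and DESeq appear in the submitters' processing notes, with Trim Galore for the sorted cells and mm10 as the build. Which program counted the reads, with which annotation and strand setting, is not given in the sources used here. The tables were never tested against each other.

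Counts were fitted over all genes in R 4.3.3 with edgeR 4.0.16 (TMM factors, its default filter on low counts, quasi-likelihood F test). A call needs p under 0.05 after Benjamini-Hochberg adjustment across every gene in the fit. The sorted cells had 3 residual degrees of freedom and the tracheas 1. Each SE is the fold change divided by the root of F. CPM values carry the TMM factors, except sums over silent receptor genes and shares of all counts. RPKM divides CPM by the union of exons of GENCODE M21. Ratios within a library were compared by two-sided exact permutation over libraries. The even background was the count per kilobase of 1898 protein-coding genes, receptors left out, with at most 3 counts in each control. It was subtracted for the 8686 genes whose mean CPM was at least 3 times its mean in the mutants. The GC-matched one used the 100 nearest of 3191 such genes, receptors included. The lists were cartilage collagen regulators, cartilage matrix partners, fibroblast collagens, procollagen enzymes, collagen receptors and cell type markers. Named genes were, per list, at most the 3 most abundant called ones, or the 2 most abundant where none was called, and the 5 genes most like Col2a1. The 7 genes and the lists were chosen with earlier results of these data known. Chi-square per degree of freedom between replicates was 23.4 to 184, where counting noise alone gives about 1, so each library was counted once, and counting error is a lower limit of the error. The fits were tested on simulated counts. Alternatives were DESeq2 1.42.0, its size factors in edgeR, no filter, each library left out, a replicate block, scaling to genes above the background and subtraction of the background.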

Additional observations from a re-analysis of the deposited data

How the results depend on the processing

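In the sorted cells 5 of the 7 genes were called lower, and 5 stayed called with DESeq2, with its size factors and without a filter. Leaving out 1 library gave 3 to 7 genes, the 3 without mutant 1. A replicate block used numbers that mutants and controls share, and whether these numbers pair any libraries is not known. Correlations of deviations (-0.174 and -0.106) cannot decide it, because the deviations of 2 mutants from their mean mirror each other. The block left 1 residual degree of freedom and 0 calls, with edgeR adjusted p of 0.0516 to 0.0936. Subtracting the even or the GC-matched background also left 0, although 1901 and 1964 genes had an unadjusted edgeR p under 0.05. Scaling to genes above the background left 4, with the median of all genes at 0.94 in place of 0.53, and 9954 higher and 719 lower calls in place of 8507 and 3381. Over all genes, calls were 2074 higher and 1521 lower without mutant 1, 4638 higher without mutant 2, 4 and 0 with the block, 27 and 14 with the even background subtracted, and 50 and 23 with the GC-matched one. Small ratios turned direction: leaving out 1 library, Col9a3 to Col2a1 ran from -0.028 (without mutant 2) to 0.23, Col9a3 to Col9a1 from -0.354 to 0.096 (without mutant 1), and Col11a2 to Col11a1 from -0.467 to 0.244 (without mutant 2; 0.154 without control 1). With the GC-matched background subtracted, Col9a3 to Col9a1 was 0.045. The cause was not tested. In the tracheas 5 genes stayed called in each alternative that has a test, while DESeq2 called 104 genes higher and 155 lower in place of 298 and 378. Without a trachea control there is no test, and Col9a2 was -0.91 or -1.34. No paired analysis was possible because the tracheas hold a single mutant. Depth limits Col11a2 most, with 241 to 373 counts in the mutant libraries.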
